A study of Mus musculus with 4 samples.

Results

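Interleukins and their receptors are described here on 4 single-colour arrays of p53-deficient mouse neural stem cells. The members are all genes whose name on the array begins with Il and a digit. Il6ra and Il6st, the receptor chains shared by the interleukin-6 family, were left out of the list and are given with the partner genes. This gave 81 genes of 22412 with a RefSeq match: 39 receptors or receptor chains, 39 secreted ligands, the soluble inhibitors Il1rn and Il18bp, and the amino acid oxidase Il4i1. A gene with several probes was represented by the probe with the highest mean log2 signal over the 4 arrays, which applied to 20 members.

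Each array stood for 1 group. The array labelled NSC held p53-/- neural stem cells of mouse embryo brain (stage E14.5), and NSC-Ceacam1L held such cells with a vector for Ceacam1L, a form of the adhesion molecule Ceacam1. NSCL61 is known as a glioma-initiating line derived from p53-deficient neural stem cells by an oncogenic Ras, and NSCL61-Ceacam1sh carried a short hairpin RNA against Ceacam1. Per the labels, all 4 were p53-/-, brain-derived and grown without serum, and hygromycin was applied for 1 week to select transfected cells. Whether the NSC and NSCL61 cells carried an empty vector, and whether a line was 1 clone or a pool, is not stated in the labels. The study asked which genes lie downstream of Ceacam1, by its gain in NSC and its knockdown in NSCL61.

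Interleukins are secreted proteins that act on nearby cells through paired receptor chains. Receptors of the IL-1 and IL-17 families signal mainly through adaptor proteins to NF-kB and MAP kinases, whereas most of the others use JAK kinases and STAT factors. In the brain they are known from microglia, astrocytes and infiltrating leukocytes, and IL-6, IL-11, IL-33 and IL-34 are also made by stromal, glial or neuronal cells.

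Values are log2 signals scaled so that 0 is the array's 75th percentile, and 4 values for a gene are always given in the order NSC, NSC-Ceacam1L, NSCL61, NSCL61-Ceacam1sh. A value compares arrays for 1 probe and not 1 probe with another. "Detected" means flagged by the scanner software as well above background. A gene was evaluated in a comparison when detected on at least 1 of its 2 arrays, and counted as higher or lower from 2-fold, a log2 difference of 1.0. The error after ± is the software's modelled error of the spots and holds no biological variation. With 1 array per group, no difference has a replicate check and no p-value is given. Where all probes of a gene were dim on 1 array, the fold is written as at least the bright value over the higher of the dim value and the lowest detected signal on that array. For a probe other than the chosen one, the bound is that of the probe on its own. Another probe of the gene may then be detected on the dim array, and the bound does not hold for the gene.

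None of the probes was named for Ceacam1 (0 probes), so the manipulation itself was not checked and groups are named as the arrays were labelled. All arrays lay on 1 slide, where the position of an array cannot be told apart from its group. NSCL61-Ceacam1sh stood apart from the other arrays. Its correlation with them across 12495 genes was 0.840 to 0.861, against 0.973 for the pair of NSC arrays. Xist, which coats the silent X chromosome, read 1.86, 1.26, 0.42 and -4.05. Of 10 neural stem cell genes, 9 or 10 were detected on each array. On NSCL61-Ceacam1sh, 6 were lower and 1 higher than on NSCL61, beside 24.3% and 23.5% of all evaluated genes. Their summed scaled signal was 321 on NSCL61-Ceacam1sh against 718 to 957 on the other arrays. The differences were -12.36 ± 0.31 for Fabp7 and -8.43 ± 0.26 for Slc1a3, and Hes5 was not detected, at least 1727-fold lower. Whether these differences bear on the results below was not tested. In bulk extracts, fewer cells of a type and less RNA per cell cannot be told apart.

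Of the 81 members, 44 were detected on at least 1 array, 24 on all 4 and 37 on none. Receptors were detected more often than ligands, 25 of 39 against 17 of 39. By array, 28 members (34.6%) were detected on NSC and 35 (43.2%) on NSCL61-Ceacam1sh, with 32 (39.5%) on each of the other two. Over all genes these shares were 62.6% to 67.1%, so members were detected less often than genes at large. By the chosen probes, 8 members were detected on NSCL61-Ceacam1sh alone. They were the receptor chains Il1rl1, Il18rap and Il13ra1, and the ligands Il6, Il7, Il15, Il20 and Il22. Il17f and Il7r were detected on NSC alone, Il3 and Il28ra on NSC-Ceacam1L alone, and Il21 on NSCL61 alone. How many of all genes were detected on a single array was not counted, so these counts have no background to be read against.

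**Figure D1:**
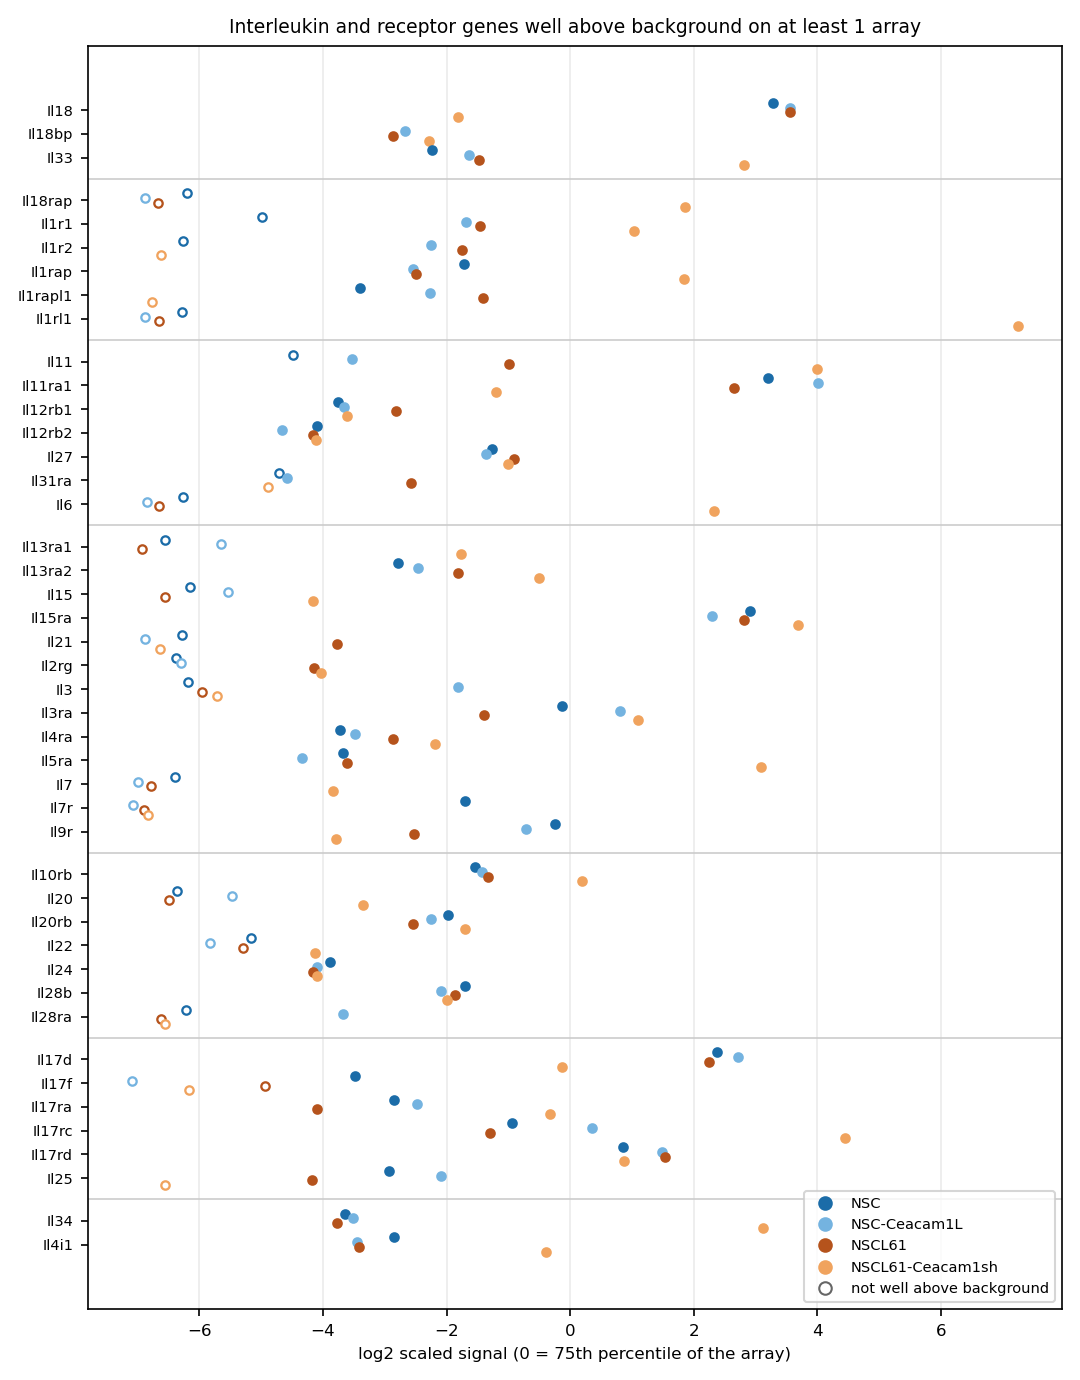
Log2 scaled signal of the 44 members detected on at least 1 array, 1 row per gene in family order and 1 point per array, with open points where the probe was not well above background. In the rows of Il1rl1, Il6, Il18rap, Il34 and Il5ra the NSCL61-Ceacam1sh point lies far to the right of the other 3, and in the rows of Il18 and Il11ra1 it lies to the left.

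Between the NSC arrays, 6 of 33 evaluated members were higher on NSC-Ceacam1L, where 10.4% of all evaluated genes were. Another 2 members were lower, against a background of 6.15%, and for both directions together the background was 16.6%. The median difference of the members was 0.26, and that of all evaluated genes was -0.11. Of these 8 members, 6 were detected on 1 array only, and the bound of Il28ra was under 2-fold. Among the 25 members detected on both arrays, 2 were higher and 0 were lower, against 6.38% and 4.66% of all genes detected on both.

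Between the NSCL61 arrays, 20 of 40 evaluated members were higher on NSCL61-Ceacam1sh, against a background of 23.5%. Another 9 were lower, against 24.3%, so that 29 of 40 were past 2-fold where 47.7% of all genes were. The members exceeded the background on the higher side and not on the lower. The members' median difference was 1.02, or 0.75 with each gene seen on 1 array entered at its bound, whereas all evaluated genes had a median of 0.01. Of the 29, 13 were detected on 1 array only, and for Il7, Il15, Il21, Il22 and Il25 the bound was under 2-fold. Among the 27 members detected on both arrays, 12 were higher and 4 lower, against 20.9% and 18.2% of all genes detected on both. Receptors and ligands had like counts, 11 higher and 5 lower of 23 receptors and 8 higher and 4 lower of 15 ligands.

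Between NSCL61 and NSC, 7 of 33 members were higher on NSCL61, against a background of 14.3%, and 6 were lower, against 14.1% (28.4% for both directions together). The members' median difference was -0.06. Of these 13, 8 were detected on 1 array only, and for Il21 and Il2rg the bound was under 2-fold. Among the 25 detected on both arrays, 1 was higher and 4 were lower, against 10.3% and 10.8% of all genes detected on both. This comparison shares the NSC array with the first and the NSCL61 array with the second, so its values are not independent of theirs.

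**Figure D2:**
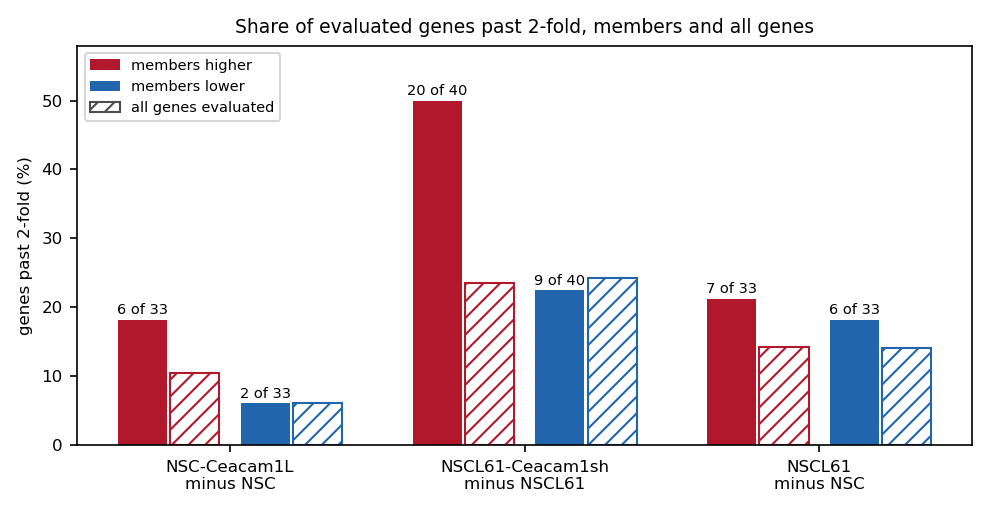
Share of evaluated genes past 2-fold (%), for the members (filled bars, with counts) and for all evaluated genes (hatched bars), higher in red and lower in blue, in the 3 comparisons. The bar that stands furthest above its background is that of the 20 of 40 members higher on NSCL61-Ceacam1sh, beside 23.5% of all genes.

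The IL-1 family receptors held the member with the largest bound in any comparison, Il1rl1. This gene, also called ST2, binds interleukin-33, and is made as a membrane receptor and as a soluble form that captures the ligand. Il1rap is the accessory chain that Il1rl1 and Il1r1 share, and it too has a soluble form. Both genes had probes for their 2 RefSeq transcript variants, of which variant 1 encodes the membrane protein and variant 2 the soluble one. They are shown because the probes of Il1rap disagreed. The first 30 of the 60 bases of each probe, as deposited, are these, with the third Il1rap probe designed on an Ensembl transcript model:
Il1rl1 variant 2: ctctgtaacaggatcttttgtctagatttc
Il1rl1 variant 1, A_55_P2027731: ccttacccaaattgccattacagtcgagca
Il1rl1 variant 1, A_55_P2027737: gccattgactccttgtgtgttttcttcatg
Il1rap variant 2: gatgttgtcaacgcctttgtttctaaatgt
Il1rap variant 1: catacatctttcagtagtcattggcaaaat
Il1rap Ensembl model: ccattttctttaaccagctcttccttgatc

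The chosen Il1rl1 probe (A_51_P339793, variant 2; chromosome 1, 40504769 to 40504828, plus strand, mm9) read -6.27, -6.87, -6.66 and 7.24. It was not detected on the first 3 arrays, and on NSCL61-Ceacam1sh it was at least 3789-fold higher than on NSCL61 (13.90 ± 1.45). The variant 1 probes read -6.89 on NSCL61 and 4.77 on NSCL61-Ceacam1sh for A_55_P2027737, at least 682-fold, and -6.79 and -0.34 for A_55_P2027731, at least 19.9-fold. So all 3 probes, annotated to the soluble or to the membrane transcript, were detected on that array and on no other. How much of each form was present cannot be read from signals of different probes.

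Il1rap gave another picture. Its variant 2 probe (chromosome 16, 26701498 to 26701557, plus strand, mm9) read -1.72, -2.55, -2.49 and 1.83, a difference of 4.32 ± 0.22 between the NSCL61 arrays. The variant 1 probe read -3.99 on NSCL61 and -3.45 on NSCL61-Ceacam1sh, a difference of 0.54 ± 0.34 that stayed within 2-fold. The third probe read -3.37 on NSCL61 and was not detected on NSCL61-Ceacam1sh, where it was at least 2.60-fold lower. The higher signal was therefore measured at the probe annotated to the soluble form, with the probe annotated to the membrane form within 2-fold. Probe positions were not placed in exons. The variant 1 values lay near the lowest detected signals, -4.65 on NSCL61 and -4.75 on NSCL61-Ceacam1sh. Averaged over its 3 probes, Il1rap differed by 0.91, which is under 2-fold.

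**Figure D3:**
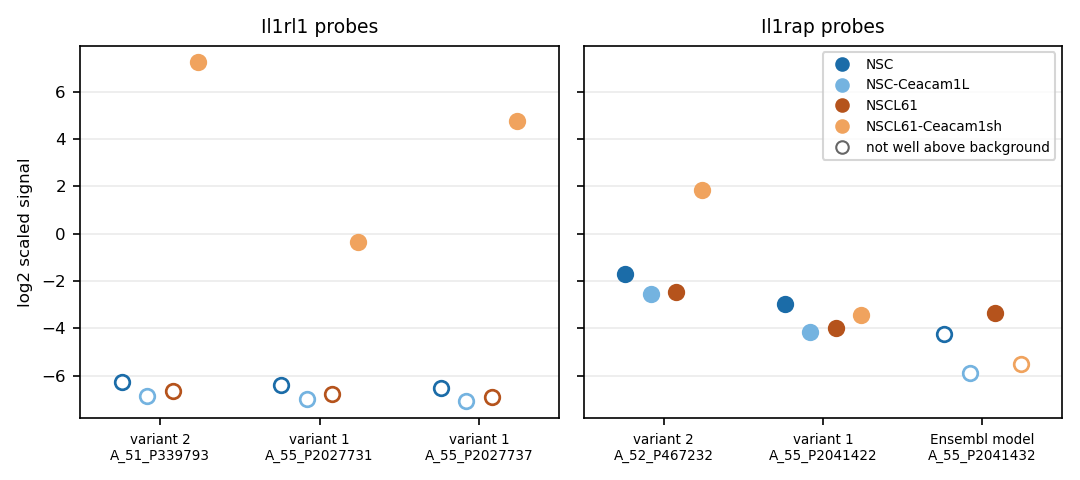
Log2 scaled signal of the 3 Il1rl1 probes (left) and the 3 Il1rap probes (right), each on the 4 arrays, with open points where not well above background. All 3 Il1rl1 probes were detected on NSCL61-Ceacam1sh alone, whereas of the Il1rap probes the variant 2 probe, at 1.83, was the one clearly higher there.

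Il18rap, the accessory chain of the interleukin-18 receptor, read -6.20, -6.88, -6.67 and 1.85 (chromosome 1, 40605729 to 40605788, plus strand, mm9). It was at least 90.7-fold higher on NSCL61-Ceacam1sh than on NSCL61 and dim on the rest. Il18r1, the chain of that receptor that binds the ligand, was detected on no array.

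Il1r1, the signalling receptor of interleukin-1, read -4.98, -1.69, -1.45 and 1.03. It was dim on NSC, at least 5.96-fold higher on NSC-Ceacam1L (3.30 ± 0.60) and at least 7.01-fold higher on NSCL61 (3.53 ± 0.60). On NSCL61-Ceacam1sh it was higher again, by 2.48 ± 0.21 over NSCL61. Il1r2, the decoy receptor that binds interleukin-1 without signalling, read -6.26, -2.26, -1.75 and -6.63. It was likewise higher on NSC-Ceacam1L and on NSCL61 than on NSC, at least 4.01-fold and 5.71-fold, but at least 8.0-fold lower on NSCL61-Ceacam1sh than on NSCL61. Between the NSCL61 arrays, receptor and decoy thus had opposite signs.

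Il1rapl1, a brain-expressed relative of Il1rap known at synapses, read -3.40, -2.26, -1.41 and -6.76. It was higher than on NSC by 1.14 ± 0.28 on NSC-Ceacam1L and by 1.99 ± 0.27 on NSCL61, and at least 10.1-fold lower on NSCL61-Ceacam1sh than on NSCL61. These values rest on a probe that lists no RefSeq gene. The other Il1rapl1 probes, designed on a RefSeq transcript, were detected on no array. Il1rapl2 and Il1rl2, the interleukin-36 receptor, were detected on no array. Of the 6 IL-1 family receptors evaluated between the NSCL61 arrays, 4 were higher and 2 lower, beside 23.5% and 24.3% of all evaluated genes. Only 2 of these 6 were detected on both arrays.

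A run of 6 of these receptor genes lies together on chromosome 1, with probes 0 to 425.7 kb from that of Il1r2. In this order come Il1r2, Il1r1, Il1rl2, Il1rl1, Il18r1 and Il18rap. Between the NSCL61 arrays the neighbours differed in sign and size: Il1r2 was lower, Il1r1, Il1rl1 and Il18rap were higher, and Il1rl2 and Il18r1, which lie between the higher ones, were not detected on either array.

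**Figure D4:**
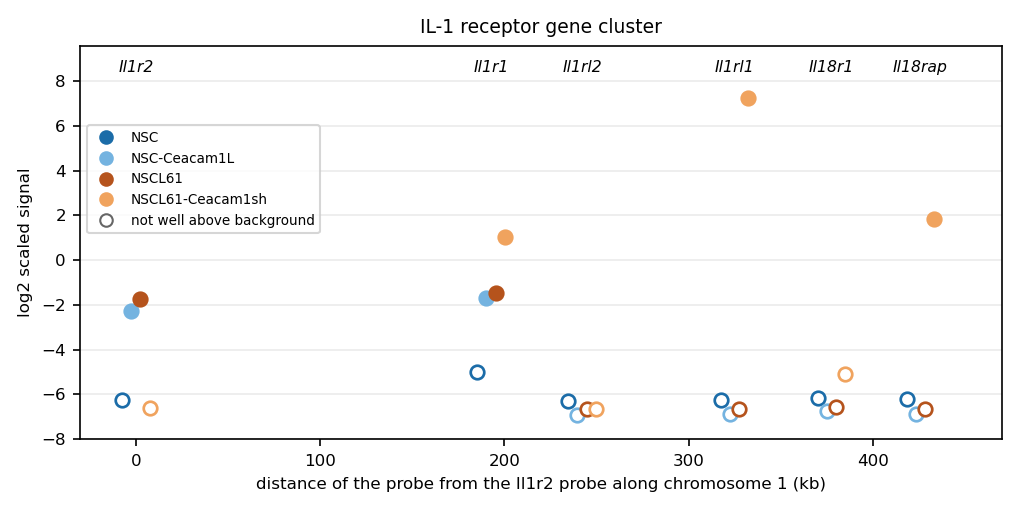
Log2 scaled signal on the 4 arrays of the 6 receptor genes of the chromosome 1 cluster against the distance of the probe from the Il1r2 probe (kb), with the points of a gene spread sideways to be visible and open where not well above background. Il1rl1 at 324.8 kb and Il18rap at 425.7 kb are detected on NSCL61-Ceacam1sh alone, with Il18r1 between them at 377.5 kb dim on all arrays.

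Among the ligands of this family, Il33 and Il18 went in opposite directions. Il33, a nuclear protein released from damaged cells and the ligand of Il1rl1, read -2.23, -1.63, -1.47 and 2.82 (chromosome 19, 30035101 to 30035160, plus strand, mm9). It was detected on all arrays, and on NSCL61-Ceacam1sh it was 19.5-fold higher than on NSCL61 (4.29 ± 0.21). Ligand and receptor of this pair were thus both highest on the same array.

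Il18, a ligand stored as a precursor and cut by caspase-1, read 3.29, 3.56, 3.56 and -1.81 (chromosome 9, 50389761 to 50389820, plus strand, mm9). It was near level on the first 3 arrays and 41.5-fold lower on NSCL61-Ceacam1sh than on NSCL61 (-5.38 ± 0.21). Il18bp, the soluble protein that captures interleukin-18, read -2.67, -2.87 and -2.29 on the last 3 arrays, within 2-fold between the NSCL61 arrays. Its NSC spot was an outlier and gave no value. Il1a, Il1b, the receptor antagonist Il1rn and the 5 genes named Il1f5 to Il1f10, of the IL-36 and IL-38 group with its antagonist, were detected on no array.

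In the gp130 and IL-12 families, Il6 and Il11 stood out. Il6, the ligand of the receptor chain Il6ra and an inducer of STAT3, read -6.26, -6.84, -6.65 and 2.32 (chromosome 5, 30346367 to 30346426, plus strand, mm9). It was detected on NSCL61-Ceacam1sh alone, at least 126-fold above NSCL61 (8.97 ± 1.46). Il11, which signals through Il11ra1 and gp130, read -4.48, -3.53, -0.99 and 4.0 (chromosome 7, 4724847 to 4724906, minus strand, mm9). It was 31.7-fold higher on NSCL61-Ceacam1sh than on NSCL61 (4.99 ± 0.21), and on NSCL61 at least 9.65-fold higher than on NSC.

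The receptor of interleukin-11 went the other way. Il11ra1 read 3.19, 4.01, 2.65 and -1.19, and was 14.3-fold lower on NSCL61-Ceacam1sh than on NSCL61 (-3.84 ± 0.21). Its probe also lists the gene Gm13305, so the signal cannot be assigned to 1 of them. Il31ra, which pairs with Osmr in the receptor of interleukin-31, read -4.71, -4.59, -2.58 and -4.88. It was highest on NSCL61, at least 3.22-fold above NSC and at least 4.51-fold above NSCL61-Ceacam1sh. The difference between NSCL61 and NSC was past 2-fold in 6 of the 8 processing settings described below. Its second probe was detected on no array. By their chosen probes, Il27, Il12rb1 and Il12rb2 were detected on all arrays and within 2-fold in every comparison. A second Il12rb1 probe was detected on NSCL61 alone, at -3.50, at least 2.11-fold above NSCL61-Ceacam1sh and at least 1.70-fold above NSC. Il12a, Il12b, Il23a, Il23r, Il27ra and Il31 were detected on no array.

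Of the 20 members higher on NSCL61-Ceacam1sh, 15 had a RefSeq promoter (GRCm38.p6, 250 bases before to 50 after the start), 19 promoters in all. The AP-1 motif TGANTCA was in 4 of the 19, those of Il6, Il11, Il5ra and Il13ra2. It was in 14 of the 79 promoters of all members and in 7.81% of all 32851 promoters. The NF-kB motif (GGGA and TTCC with 2 bases of any kind between them) was in 1 of the 19, that of Il6, in 3 of the 79 and in 1.47% of all promoters. The STAT motif TTCNNNGAA was in 0 of the 19, in 10 of the 79 and in 8.3% of all. TATAAA was in 4 of the 19, of the genes Il13ra2, Il22 and Il33, in 14 of the 79 and in 13.6% of all. All motifs were searched on both strands, and a match is a string of letters in this window and no evidence of binding. The 250 bases before the start are shown for the 3 of the 4 AP-1 holders with the largest differences, with the motifs in capitals. In Il6 (chr5:30012864-30013113, plus strand) they begin at -249 (AP-1) and -44 (NF-kB) from the start, in Il11 (chr7:4778142-4778391, minus strand, 1 of its 2 starts) at -98, and in Il5ra (chr6:106749038-106749287, minus strand) at -99:
Il6: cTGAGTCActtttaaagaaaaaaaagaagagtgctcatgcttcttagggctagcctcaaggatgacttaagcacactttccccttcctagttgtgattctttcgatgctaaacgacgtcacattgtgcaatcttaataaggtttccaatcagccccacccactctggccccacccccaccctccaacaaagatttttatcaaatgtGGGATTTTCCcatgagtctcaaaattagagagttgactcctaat
Il11: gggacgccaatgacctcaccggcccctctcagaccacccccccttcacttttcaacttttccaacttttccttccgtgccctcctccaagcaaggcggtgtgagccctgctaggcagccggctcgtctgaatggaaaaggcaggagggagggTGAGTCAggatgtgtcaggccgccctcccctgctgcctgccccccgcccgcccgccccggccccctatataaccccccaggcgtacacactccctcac
Il5ra: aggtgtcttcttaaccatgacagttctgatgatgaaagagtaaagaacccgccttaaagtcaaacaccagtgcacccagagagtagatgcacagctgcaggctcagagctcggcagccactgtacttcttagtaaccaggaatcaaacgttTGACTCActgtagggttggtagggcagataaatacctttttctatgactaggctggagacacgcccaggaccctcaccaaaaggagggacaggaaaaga

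Of the 21 ligands and receptor chains of the common gamma, IL-4/IL-13 and common beta families, 11 were evaluated between the NSCL61 arrays. Of these 11, 6 were higher and 2 lower, beside 23.5% and 24.3% of all evaluated genes. The ligands among these were Il7 and Il15, higher, and Il21, lower. Il5ra, the ligand-binding chain of the interleukin-5 receptor known from eosinophils, read -3.68, -4.34, -3.62 and 3.09 (chromosome 6, 106660378 to 106660437, minus strand, mm9). It was low on 3 arrays and 104-fold higher on NSCL61-Ceacam1sh than on NSCL61 (6.70 ± 0.27). Its ligand Il5 was detected on no array. Il3ra, the interleukin-3 receptor chain, read -0.13, 0.81, -1.40 and 1.1, lower on NSCL61 than on NSC by 1.27 ± 0.21 and higher on NSCL61-Ceacam1sh than on NSCL61 by 2.50 ± 0.21.

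The chains that bind interleukin-4 and interleukin-13 were also higher or showed a positive difference. Il13ra1, the signalling chain, read -6.55, -5.65, -6.92 and -1.77 and was at least 7.37-fold higher on NSCL61-Ceacam1sh than on NSCL61. Il13ra2, a decoy for interleukin-13, read -2.79, -2.46, -1.81 and -0.50, a difference of 1.32 ± 0.21 between the NSCL61 arrays. Il4ra depended on the probe. The chosen probe read -2.87 on NSCL61 and -2.18 on NSCL61-Ceacam1sh, within 2-fold, whereas the second probe read -3.77 and -0.25, a difference of 3.53 ± 0.29. Their mean signals over the 4 arrays, which decided the choice, were -3.06 and -3.07. Il4 and Il13 were detected on no array.

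Among the members, Il7r had the largest bound between the NSC arrays. This receptor chain for interleukin-7 and for Tslp read -1.70, -7.08, -6.89 and -6.83 (chromosome 15, 9435976 to 9436035, minus strand, mm9). It was detected on NSC alone, and was at least 8.89-fold lower on NSC-Ceacam1L and at least 7.72-fold lower on NSCL61. Its ligand Il7 was dim on those 3 arrays and read -3.83 on NSCL61-Ceacam1sh, at least 1.76-fold above NSCL61. Il3, a growth factor of blood progenitors, read -6.18, -1.82, -5.96 and -5.71, and was at least 5.45-fold higher on NSC-Ceacam1L than on NSC. Receptor and ligand were detected on separate arrays for the pair Il7r and Il7.

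Il9r, the interleukin-9 receptor, read -0.24, -0.72, -2.52 and -3.79, lower on NSCL61 than on NSC by 2.28 ± 0.22 and lower again on NSCL61-Ceacam1sh by 1.27 ± 0.31. The difference between the NSCL61 arrays was past 2-fold in 3 of the 8 processing settings described below. A second Il9r probe was detected on no array. Il15ra, which presents interleukin-15 to neighbouring cells, was bright on all arrays, at 2.90, 2.29, 2.81 and 3.68, and within 2-fold in each comparison by this probe. Its second probe was dim on NSCL61 and at least 2.67-fold higher on NSCL61-Ceacam1sh. Il15 read -4.16 on NSCL61-Ceacam1sh, at least 1.41-fold above NSCL61, and Il2rg, the common gamma chain, read -4.14 on NSCL61 and -4.03 on NSCL61-Ceacam1sh, both near the lowest detected signals. Il21, a T cell ligand, was detected on NSCL61 alone, at -3.77, at least 1.98-fold above NSCL61-Ceacam1sh. Il2, Il2ra, Il2rb, Il21r and Il9 were detected on no array.

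Of 5 IL-17 family members evaluated between the NSCL61 arrays, 2 receptor chains were higher and 2 ligands lower. Of all evaluated genes, 23.5% were higher and 24.3% lower. Il17rc and Il17ra together form the receptor of interleukin-17A and interleukin-17F. Il17rc read -0.94, 0.36, -1.30 and 4.44 (chromosome 6, 113433073 to 113433132, plus strand, mm9), 53.5-fold higher on NSCL61-Ceacam1sh than on NSCL61 (5.74 ± 0.21) and higher by 1.29 ± 0.21 on NSC-Ceacam1L than on NSC. Il17ra read -2.85, -2.48, -4.10 and -0.32 (chromosome 6, 120432880 to 120432939, plus strand, mm9), 13.8-fold higher on NSCL61-Ceacam1sh than on NSCL61 (3.78 ± 0.33). Both chains were highest on NSCL61-Ceacam1sh, and the second Il17rc probe was also higher there, at least 48.0-fold.

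The ligands evaluated there were lower on that array. Il17d, a ligand made outside the immune system, read 2.38, 2.72, 2.25 and -0.14, a difference of -2.38 ± 0.20 between the NSCL61 arrays. Il25, which signals through Il17ra and Il17rb, read -2.92, -2.09, -4.18 and -6.55, lower on NSCL61 than on NSC by 1.26 ± 0.38 and at least 1.49-fold lower again on NSCL61-Ceacam1sh. Il17f was detected on NSC alone, at -3.47, at least 2.60-fold above NSC-Ceacam1L and at least 2.26-fold above NSCL61. Il17rd, also known as the growth factor antagonist Sef, was at 0.86, 1.49, 1.54 and 0.88, within 2-fold throughout. Il17a, Il17b, Il17c, Il17rb and Il17re were detected on no array.

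The IL-10 and interferon lambda family gave smaller values. Il10rb, a chain shared by the receptors of IL-10, IL-22 and interferon lambda, read -1.53, -1.42, -1.33 and 0.20, higher on NSCL61-Ceacam1sh than on NSCL61 by 1.53 ± 0.21. Il20 read -3.35 on NSCL61-Ceacam1sh, at least 2.46-fold above NSCL61. This probe lists no RefSeq gene, and the second Il20 probe, designed on a RefSeq transcript, was detected on no array. Il22 read -4.13 on NSCL61-Ceacam1sh, at least 1.44-fold above NSCL61, through a probe that also lists its near copy Iltifb. Il28ra, now named Ifnlr1, read -3.68 on NSC-Ceacam1L alone, at least 1.5-fold above NSC. By their chosen probes, Il20rb, Il24 and Il28b, whose probe lists Ifnl2 and Ifnl3, were detected on all arrays and within 2-fold. A second Il24 probe was detected on NSC alone, at -3.96, at least 1.86-fold above NSC-Ceacam1L and at least 1.6-fold above NSCL61. Il10, Il10ra, Il19, Il20ra, Il22ra1 and Il22ra2 were detected on no array. Of the neighbours Il10, Il19, Il20 and Il24 on chromosome 1, Il20 alone was higher on NSCL61-Ceacam1sh than on NSCL61, and only at its chosen probe.

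Outside these families, Il34 had the largest measured difference of a member detected on both NSCL61 arrays. Il34, a ligand of the macrophage receptor Csf1r made in the brain mainly by neurons, read -3.65, -3.52, -3.78 and 3.12 (chromosome 8, 113265835 to 113265894, minus strand, mm9). It was near level on the first 3 arrays and 119-fold higher on NSCL61-Ceacam1sh than on NSCL61 (6.89 ± 0.26). Il4i1, an enzyme that breaks down aromatic amino acids, read -2.85, -3.45, -3.42 and -0.38, a difference of 3.03 ± 0.25, through a probe that also lists Il4i1b. Il16 was detected on no array.

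**Figure D5:**
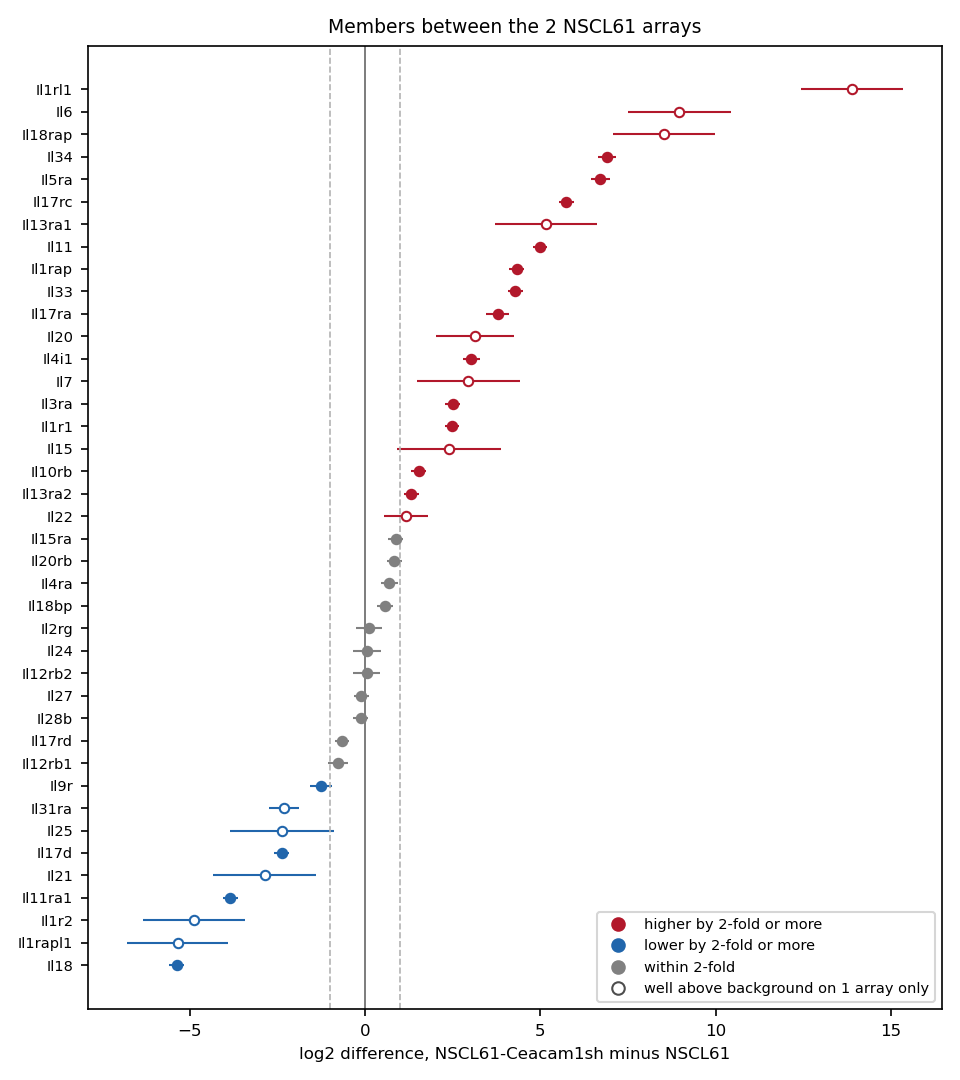
Log2 difference of the 40 evaluated members, NSCL61-Ceacam1sh minus NSCL61, with bars for the modelled error of the spots, dashed lines at 2-fold and open points where the gene was detected on 1 array only. The 20 higher members run from Il22 at 1.16 to Il1rl1 at 13.90, and the 9 lower ones from Il9r at -1.27 to Il18 at -5.38.

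Of 47 listed partner and signalling genes, 13 of 42 evaluated were higher and 8 lower on NSCL61-Ceacam1sh than on NSCL61, beside 23.5% and 24.3% of all evaluated genes. Of 6 NF-kB genes, 3 were higher, 0 lower and the others within 2-fold. Of 12 JAK and STAT genes, 0 were higher and 4 lower, with the others within 2-fold. Nfkb1 was higher by 2.60 ± 0.21 and Nfkb2 by 2.30 ± 0.20. Socs2, a feedback inhibitor of cytokine receptors, was lower by 3.77 ± 0.21, and Jak2 was lower by 1.84 ± 0.20.

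Of 14 IL-1 receptor signalling genes, 5 were higher and 3 lower on NSCL61-Ceacam1sh than on NSCL61. Besides Irak3 and Casp1, given below, the higher ones were Map3k7, Tab3 and Myd88, at 1.78, 1.20 and 1.17. The lower ones were the kinase Irak4 and the kinase-binding proteins Tab1 and Tab2, at -1.10, -1.48 and -1.06. Tab3, Myd88 and the lower genes were named after their values were seen. Of 10 receptor partners evaluated, 5 were higher and 1 lower. Sigirr, an inhibitory relative of the IL-1 receptors, was at least 25.6-fold higher. Traf3ip2, the adaptor of the IL-17 receptors, was at least 12.8-fold higher and Irak3, an inhibitory kinase homologue of this pathway, at least 8.44-fold. Casp1, the protease that matures IL-1 beta and IL-18, was higher by 4.06 ± 0.22, beside the lower Il18. Tslp, a ligand that uses Il7r and Crlf2, was at least 2.41-fold higher.

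The same list was read in the other comparisons. Between the NSC arrays, 9 of 44 listed genes were higher on NSC-Ceacam1L and 1 lower, beside 10.4% and 6.15% of all evaluated genes. Osmr, the oncostatin M receptor chain, was at least 27.1-fold higher, Socs3, the feedback inhibitor of gp130 signalling, was higher by 4.74 ± 0.20 and Il6st, or gp130, by 1.26 ± 0.20. Tslp was at least 4.81-fold lower. Between NSCL61 and NSC, 13 of 41 were higher and 4 lower, beside 14.3% and 14.1% of all evaluated genes. Osmr was at least 18.5-fold higher on NSCL61, Il6ra was higher by 4.54 ± 0.22, Socs3 by 4.29 ± 0.20 and Socs1 by 3.22 ± 0.22. Among the 4 lower, Tslp was at least 4.99-fold and Ebi3 at least 4.66-fold lower, and Crlf2 was lower by 1.93 ± 0.20.

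Cell type markers also differed between the NSCL61 arrays. The summed scaled signal of 9 fibroblast and mesothelial genes was 107.3 on NSCL61-Ceacam1sh against 3.25 to 6.22 on the other arrays. This sum is weighted toward its brightest probe there, that of Msln at 6.39. Between the NSCL61 arrays, 6 of the 7 evaluated were higher and 0 lower, beside 23.5% and 24.3% of all evaluated genes. Pdgfra was within 2-fold. Of these 9 genes, 7 were detected on NSCL61-Ceacam1sh, and Lum and Upk3b on no array. The sum of 5 astrocyte genes was 2.49 on NSCL61-Ceacam1sh against 51.1 to 284 on the other arrays, with Gfap and S100b not detected there. Their part in the differences of the interleukin genes was not tested.

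Markers of leukocytes were detected in part. Of the 9 microglia and macrophage genes with a probe, Ptprc, the pan-leukocyte antigen, Aif1 and Tyrobp were detected on no array, whereas Itgam, Csf1r, Cd68 and Cd14 were detected on all 4. Between the NSCL61 arrays, 23.5% of all evaluated genes were higher and 24.3% lower. Of the 6 evaluated on this list, 1 was higher, Cd14 by 3.13 ± 0.21, and 3 were lower. Of 8 T and innate lymphoid cell genes, Cd3d and Cd3g were detected on no array, and Cd3e, Cd4 and Lck on all 4. Of the 6 evaluated, 1 was higher, Gata3 by 2.59 ± 0.26, and 1 was lower. Of 8 mast cell genes, Fcer1a, Ms4a2, Cpa3, Mcpt4 and Cma1 were detected on no array and Tpsb2 on all 4. Hdc was at least 1.41-fold higher on NSCL61-Ceacam1sh than on NSCL61, and Kit at least 62.1-fold lower. The summed scaled signals on NSCL61-Ceacam1sh were 16.7, 5.21 and 0.500 for the 3 lists, against 22.0 to 28.9, 6.20 to 18.4 and 0.984 to 2.95 on the other arrays. Such a sum is weighted toward its brightest probes. The part of such cells in the differences of the interleukin genes was not tested.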

How the data were processed

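Gene expression was measured on 4 Agilent mouse arrays (design 028005, coordinates on mm9), 1 per group, with groups taken from the sample titles. The authors' scanner output, deposited per array, holds intensity values, corrected for background and detrended by the software, each with a modelled error. Per the file headers it came from version 10.7.3.1 of Agilent Feature Extraction, and the submitters' processing notes give version 9.1. A deposited table of log2 values by the authors, with its centring not given in the sources used here, served as an alternative. The detection flag comes from the deposited files.

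From these, log2 signals were taken, less the 75th percentile of the 59305 non-control spots of the array (Python 3.11.15, pandas 2.3.3). Outlier spots were left out and spots of a probe averaged. A probe was detected when at least 50% of its spots were well above background. At 1 array per group, the number of arrays limits the precision, and no test was possible. The calling script was tested on simulated data. The probes changed there were bright and detected on both arrays, so calls on dim genes or genes detected on 1 array only were not covered. Normexp (offset 50), quantile and cyclic loess alternatives used limma 3.58.1.

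The members and all gene lists were chosen with earlier results of these data known. The naming rule allowed every member detected on an array with its values, and of the partner genes at most the 10 largest of a comparison. Between the NSCL61 arrays it was not kept, as IL-1 receptor signalling genes with smaller differences were named as well. The transcript probes and promoters shown were picked after their values were seen. RefSeq promoters matched 64 of the 81 members.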

Additional observations from a re-analysis of the deposited data

How the results depend on the processing

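All called differences (8 members between the NSC arrays, 29 between the NSCL61 arrays and 13 between NSCL61 and NSC) kept their direction in the 8 settings that gave each member a value, and 5, 20 and 6 of them were past 2-fold in every one. Normexp background correction, whose offset draws dim signals together, gave 1 lower member between the NSC arrays, 4 higher and 2 lower between NSCL61 and NSC, and medians of 0.36 between the NSCL61 arrays and 0.0012, with the sign turned, between NSCL61 and NSC. Scaling to spike-ins gave 11 higher members and a median of 0.64 between the NSC arrays, and a median of 1.45 between the NSCL61 arrays, where median scaling gave 1.43. Spike-in scaling moved the median of all evaluated genes to 0.27, 0.44 and -0.20 in the same order of comparisons, from -0.11, 0.01 and 0.02, median scaling moved the second to 0.43, cyclic loess the first to 0.12, and the percentile over detected probes the first to 0.07 and the second to -0.16. Without a filter on dim probes, 5 members were lower between the NSC arrays and their median was -0.55; the cause was not tested. With detection on both arrays required, the counts were 2 higher and 0 lower of 25 between the NSC arrays, 12 and 4 of 27 between the NSCL61 arrays, and 1 higher between NSCL61 and NSC. The mean over all probes of a gene gave 4 lower members between the NSC arrays. At 1.5-fold, 12 were higher and 6 lower between the NSC arrays and 12 higher between NSCL61 and NSC, and at 4-fold 2 were lower in the latter.

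No paired analysis was possible because each group has 1 array. No array was left out for the same reason. The modelled error reaches over 1 log2 unit for most genes dim on 1 array, and 37 members were not well above background on any array.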
